A study of Mus musculus with 28 samples.

Results

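Transcripts of 8 genes, the Ly6 genes *Ly6a*, *Ly6c1*, *Ly6c2*, *Ly6d* and *Ly6e* and the fetal-like epithelial genes *Clu*, *Msln* and *Il33*, were followed in mouse colon organoids before and after Cre recombination. The genes were taken by name, and all 8 were among the 13519 genes counted. They were chosen by their read counts and 4-HT changes in these same samples, so their levels and their changes with 4-hydroxytamoxifen (4-HT), with and without the *Braf* allele, are given as a description, and nothing is read from how many pass a threshold. Measures that played no part in the choice, namely differences between alleles before recombination, the *Trp53* allele and the duplicate number, were tested. Lists of other genes were tested on the 4-HT changes too. The lists were chosen with earlier results of these data known, so their p values are not independent of that choice.

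Organoids came from the colon epithelium of C57BL/6N mice whose *Villin* promoter drives CreERT2 in epithelial cells, and all carried APC flox/flox. AC organoids had no further allele, PAC organoids had Trp53 LSL-R172H/+, BAC organoids had Braf floxV600E/+, and BPAC organoids had both. The labels name 7 donors, 1 for AC and 2 for each other genotype, and each donor gave 2 cultures, called duplicates 1 and 2. The study describes organoid clones taken from 2 distinct passages, and the labels do not say whether the duplicates are these passages. Each of the 14 cultures was exposed for 24 h to ethanol (EtOH) or to 3.5 µM 4-HT, and RNA was isolated 3 days later, which gave 28 samples. The allele before recombination was present in EtOH samples too, no organoids without the floxed *Apc* allele were analysed here, and AC rests on a single donor.

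Ly6 proteins are small surface proteins, most of them held in the membrane by a GPI anchor and folded through a cysteine-rich domain that they share with the urokinase receptor. *Ly6a* encodes Sca-1, a surface protein used to mark fetal-like and regenerating gut epithelium, and *Clu*, which encodes the secreted chaperone clusterin, marks cells that restore the crypt after injury. *Msln* encodes mesothelin, a GPI-anchored protein best known from mesothelium, and *Il33* encodes a nuclear cytokine released from damaged epithelium.

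The 5 Ly6 genes lie together on chromosome 15 of GRCm38, within 350.0 kb, and each of the 8 genes is annotated as protein coding. *Ly6d* (ENSMUSG00000034634) lies at chr15:74762056-74763620 on the minus strand and *Ly6e* (ENSMUSG00000022587) at chr15:74955051-74959905 on the plus strand. *Ly6a* (ENSMUSG00000075602), *Ly6c1* (ENSMUSG00000079018) and *Ly6c2* (ENSMUSG00000022584) lie on the minus strand at chr15:74994877-74998031, chr15:75044018-75048830 and chr15:75108158-75111970. *Clu* (ENSMUSG00000022037) lies at chr14:65968483-65981547 on the plus strand, *Msln* (ENSMUSG00000063011) at chr17:25748613-25754378 on the minus strand and *Il33* (ENSMUSG00000024810) at chr19:29925114-29960718 on the plus strand.

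RefSeq promoter windows of GRCm38.p6 matched 3 of the 8 genes, *Ly6c1*, *Ly6c2* and *Il33*. The 250 bases before the start site of these genes are shown because these were the members with a window, among them the paralogs *Ly6c1* and *Ly6c2*, with the Ly6 neighbor *Ly6g* beside them. Each runs 5′ to 3′ on the gene's strand, at chr15:75048838-75049087 (*Ly6c1*, minus), chr15:75111972-75112221 (*Ly6c2*, minus), chr15:75155011-75155260 (*Ly6g*, plus) and chr19:29924863-29925112 (*Il33*, plus). Capitals mark a stretch of 12 bases that the 3 Ly6 windows have in common, and in *Il33* they mark the letters GGAATG, a TEAD motif.
Ly6c1: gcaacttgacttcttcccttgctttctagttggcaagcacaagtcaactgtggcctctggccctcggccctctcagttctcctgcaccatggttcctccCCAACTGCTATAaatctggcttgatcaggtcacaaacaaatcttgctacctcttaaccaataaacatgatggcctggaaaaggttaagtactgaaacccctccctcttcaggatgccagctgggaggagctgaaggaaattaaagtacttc
Ly6c2: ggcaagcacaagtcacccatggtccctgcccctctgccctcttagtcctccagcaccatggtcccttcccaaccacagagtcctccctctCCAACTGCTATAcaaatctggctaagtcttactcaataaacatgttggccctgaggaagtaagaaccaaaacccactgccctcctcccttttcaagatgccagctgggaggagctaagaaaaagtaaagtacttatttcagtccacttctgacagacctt
Ly6g: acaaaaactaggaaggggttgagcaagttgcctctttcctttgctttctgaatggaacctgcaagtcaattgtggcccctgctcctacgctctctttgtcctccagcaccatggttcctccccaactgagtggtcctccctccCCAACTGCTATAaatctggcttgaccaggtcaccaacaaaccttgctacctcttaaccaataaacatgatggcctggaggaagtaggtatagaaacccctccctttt
Il33: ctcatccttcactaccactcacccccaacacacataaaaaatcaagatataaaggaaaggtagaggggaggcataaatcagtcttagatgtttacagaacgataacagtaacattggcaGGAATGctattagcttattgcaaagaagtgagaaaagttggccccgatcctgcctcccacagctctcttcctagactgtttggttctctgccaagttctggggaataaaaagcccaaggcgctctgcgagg
The windows were searched on both strands for AP-1 (TGANTCA), TEAD (GGAATG), TCF/LEF (CTTTGAA or CTTTGAT), STAT (TTCNNNGAA), an interferon element (GAAA, any 2 bases, GAAA) and ETS (CCGGAAGT). The TEAD letters in the *Il33* window, 131 bases before the start site, were the 1 match in the 4 windows. Of the 32851 promoter windows in the table, 12.6% held GGAATG, 6.75% TGANTCA, 4.46% CTTTGAA, 3.21% CTTTGAT, 7.02% TTCNNNGAA, 2.98% the interferon element and 2.88% CCGGAAGT. A match describes letters only, and a window without one says nothing of the factor.

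Totals ran from 20577276 to 40068718 counts per sample, and levels are given as CPM, counts scaled to the library total after TMM normalization, unless a count is named. *Trp53*, whose LSL cassette stops transcription of the mutant allele, read 51.4 to 66.1 CPM in EtOH samples with the LSL allele and 97.9 to 121.6 CPM in those without. *Braf* read 20.2 to 27.9 CPM in all samples and *Apc* 27.9 to 49.7 CPM with EtOH and 51.4 to 73.8 CPM with 4-HT, and gene counts cannot show the exchanged or deleted exons of these genes. All 8 epithelial markers were counted, with a summed level of 12000 to 22800 CPM. Of the markers of other cells, 3 of 8 immune, 2 of 6 endothelial, 1 of 8 fibroblast and 1 of 5 mesothelial genes were counted, and the rest were not analysed here. The PAC 4-HT samples of duplicate 1 from both donors held *Xist* (25.2 and 22 CPM) together with the Y-linked *Ddx3y* (13.8 and 13 CPM). In the other PAC samples, donor 1 had *Ddx3y* at 30.9 CPM or more with *Xist* at 0.251 CPM or less, and donor 2 had *Xist* at 59.9 CPM or more with *Ddx3y* at 0, so the differences between 4-HT changes with and without the *Braf* allele are also given without the 2 samples.

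Per kilobase of exon, *Ly6a* was the most abundant of the 8 transcripts. In EtOH samples without the *Braf* allele its mean was 639 CPM per kb. *Msln* (71.9), *Ly6d* (61.8), *Clu* (44.6), *Ly6e* (22.8) and *Ly6c1* (14.7 CPM per kb) came next, and each of these neighbors in the order overlapped the next in its range over the 6 samples. *Il33* (0.683 CPM per kb) and *Ly6c2* (0.0422 CPM per kb) lay below them without overlap. In the 8 4-HT samples with the *Braf* allele, *Ly6a* was at 1148 CPM per kb and *Ly6c1*, at 106 CPM per kb, stood next in order ahead of *Ly6e* (73.6 CPM per kb), with overlapping ranges. *Ly6c2* (4.83) and *Il33* (2.33 CPM per kb) were the lowest, below *Clu* (18.7 CPM per kb), and overlapped each other. The length used for *Ly6c2*, 2740 bases, joins the exons of all its transcripts. Its protein-coding transcripts held only 817 different windows of 50 bases, so its place in both orders may depend on the length used.

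**Figure D1:**
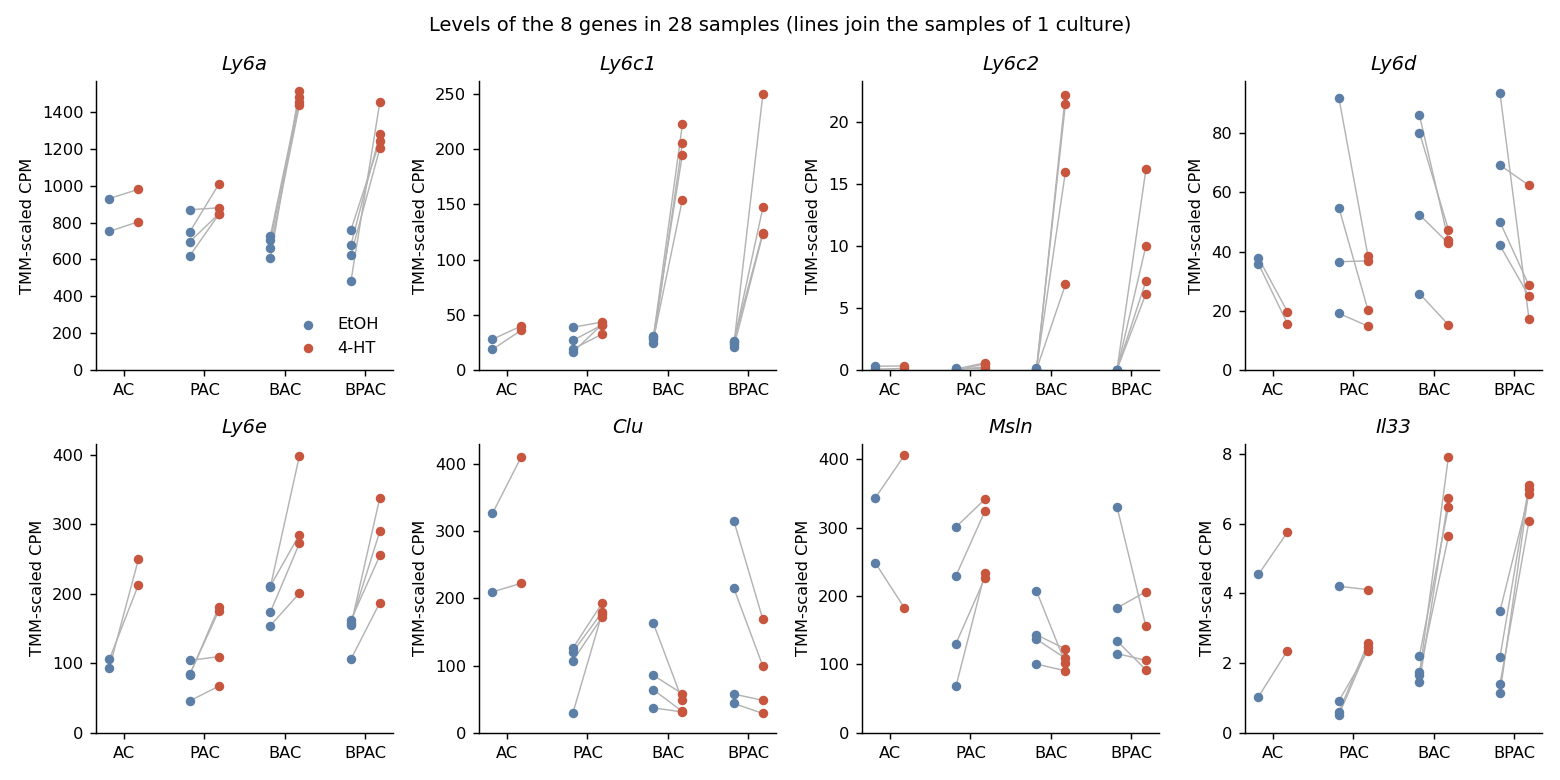
TMM-scaled CPM (y axis, from 0 in each panel) of the 8 genes by genotype, with EtOH samples in blue and 4-HT samples in red, and a line for each of the 14 cultures. *Ly6a*, *Ly6c1* and *Ly6c2* with 4-HT lie higher in the 8 BAC and BPAC samples than in all other 20, while *Ly6d*, *Ly6e*, *Clu*, *Msln* and *Il33* overlap them.

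*Ly6a*, *Ly6c1* and *Ly6c2* were higher in the 8 4-HT samples with the *Braf* allele than in each of the other 20 samples. Of all genes, 8.13% separated these samples in that direction. *Ly6a* read 1516, 1452, 1436 and 1480.2 CPM in the 4 BAC samples with 4-HT and 1282, 1203, 1454 and 1243 CPM in the 4 BPAC samples. The 4-HT samples without the allele ran from 805 to 1009 CPM (median 864, n = 6), the EtOH samples without it from 621 to 931 CPM (median 752, n = 6) and those with it from 482 to 759 CPM (median 669, n = 8). The EtOH groups overlapped, while the 4-HT groups did not. The log2 change from EtOH to 4-HT was 0.09 (standard error (SE) 0.17) in AC, 0.29 (SE 0.12) in PAC, 1.12 (SE 0.12) in BAC and 1.03 (SE 0.12) in BPAC. The mean change with the *Braf* allele exceeded that without it by 0.89 (SE 0.13), a 1.85-fold difference.

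*Ly6c1*, which encodes a Ly6C surface protein known from endothelium and myeloid cells, changed more. Its level was 205, 222, 154 and 195 CPM in BAC with 4-HT and 147, 123, 249.7 and 124 CPM in BPAC with 4-HT. Without the allele, 4-HT samples ran from 32.5 to 43.5 CPM (median 40.4, n = 6). EtOH samples ran from 16.4 to 38.9 CPM (median 23.1, n = 6) without and from 21.3 to 30.9 CPM (median 26.2, n = 8) with the allele, and these groups overlapped. The log2 change was 0.71 (SE 0.31) in AC, 0.64 (SE 0.22) in PAC, 2.78 (SE 0.23) in BAC and 2.73 (SE 0.23) in BPAC. The difference between the mean changes with and without the allele was 2.08 (SE 0.25), or 4.23-fold.

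*Ly6c2*, the close paralog of *Ly6c1* 59.3 kb away, was at or near 0 except in the 4-HT samples with the *Braf* allele. Every gene in the count table passed 1 CPM in at least 2 samples, and *Ly6c2* passed it only in those 4-HT samples. If this was a filter, *Ly6c2* met it only through the group where it was high. The separation of *Ly6c2* is therefore a description. With EtOH, its raw counts were 8 and 2 in AC, 1, 4, 2 and 0 in PAC, 0, 2, 1 and 3 in BAC and 0, 1, 0 and 1 in BPAC. With 4-HT they were 11 and 4 in AC, 9, 3, 13 and 15 in PAC, 862, 908, 197 and 470 in BAC and 414, 259, 484 and 231 in BPAC. The lowest 4-HT sample with the allele, at 197 counts, thus held more than all other 20 samples, whose highest count was 15, and in CPM these groups ran from 6.16 to 22.2 and from 0 to 0.591. Pooled over samples, the ratio of 4-HT to EtOH in TMM-scaled counts was 279 in BAC (6 against 2437 counts, 95% interval 128 to 761) and 422 in BPAC (2 against 1388 counts, 116.6 to 3489). It was 1.23 in AC (10 against 15 counts, 0.517 to 3.06) and 5.05 in PAC (7 against 40 counts, 2.24 to 13.4). The intervals are exact (Clopper-Pearson) and cover counting error only. The fitted log2 difference between the changes with and without the allele was 6.94 with edgeR's default prior count, 6.63 with a prior of 0.5 and 5.25 with a prior of 5, so its size depends on that setting. Without BPAC donor 2 it was 8.44.

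Reads of the paralogs may be shared between them. In the exons of GENCODE, 31.2% of the 50-base windows of *Ly6c2* also occurred in another gene, 252 of these 255 in *Ly6c1*, against 32.8% of *Ly6c1*, 19.0% of *Ly6a* and 0.448% of *Ly6g*, and none of *Ly6d*, *Ly6e*, *Clu*, *Msln* or *Il33*. The program that counted the reads is not given in the sources used here, so counts of the 3 related genes are uncertain. *Ly6c2* reads per 100 *Ly6c1* reads ran from 4.47 to 10.8 (median 6.63) in the 4-HT samples with the *Braf* allele and from 0.255 to 1.82 (median 0.806) in those without. In EtOH they ran from 0 to 0.502 with and from 0 to 1.7 without the allele. The ratio of *Ly6c2* to *Ly6c1* was therefore higher in the 4-HT samples with the *Braf* allele than in every other sample, while the other groups overlapped.

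**Figure D2:**
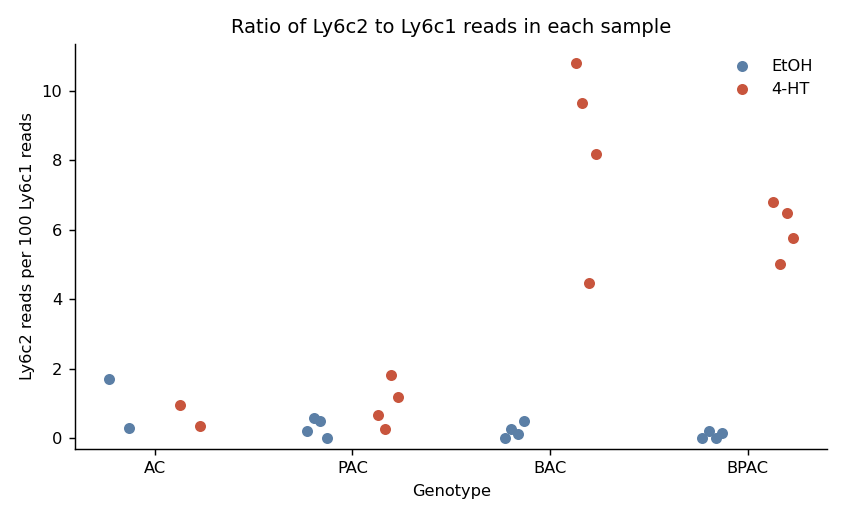
*Ly6c2* reads per 100 *Ly6c1* reads (y axis) in each of the 28 samples by genotype (x axis), with EtOH in blue and 4-HT in red. The 8 red BAC and BPAC points lie at 4.47 or above and every other point at 1.82 or below.

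Counted markers of other cells that express Ly6 genes were at low levels in the 4-HT samples with the *Braf* allele. *Pecam1* and *Emcn*, of endothelium, summed to 1.03 to 2.45 CPM there, against 2.46 to 3.41 CPM in 4-HT samples without the allele and 1.99 to 6.13 CPM in EtOH samples. *Cd3e*, *Cd68* and *Itgam*, of immune cells, summed to 2.65 to 4.45 CPM, against 3.99 to 7.08 CPM and 2.58 to 6.64 CPM. *Vim*, of fibroblasts, was at 3.45 to 6.07 CPM, against 2.3 to 5.54 CPM and 2.31 to 6.33 CPM. The part of these cells in the result was not tested. In bulk RNA, fewer cells with a transcript and less of it per cell cannot be told apart.

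*Il33* was low throughout and highest with 4-HT and the *Braf* allele. Its level was 7.92, 6.73, 6.48 and 5.63 CPM (166 to 308 counts) in BAC with 4-HT and 6.07, 7.09, 6.98 and 6.84 CPM (209 to 298 counts) in BPAC. In AC with 4-HT it was 2.36 and 5.75 CPM and in PAC 2.57, 2.36, 2.45 and 4.11 CPM, so the groups overlapped through duplicate 2 of AC. EtOH samples ran from 0.522 to 4.54 CPM (median 0.979, n = 6) without and from 1.13 to 3.49 CPM (median 1.71, n = 8) with the allele. The log2 change was 0.54 (SE 0.67) in AC, 0.86 (SE 0.49) in PAC, 1.91 (SE 0.49) in BAC and 1.72 (SE 0.48) in BPAC. The difference with and without the allele was 1.11 (SE 0.54).

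*Clu* went in opposite directions. Within cultures it was higher with 4-HT in 6 of 6 cultures without the *Braf* allele, by 0.09 to 2.56 on the log2 scale, and lower in 8 of 8 with it, with changes from -1.75 to -0.25. The highest value, 2.56, came from a PAC culture whose 4-HT sample held *Xist* and *Ddx3y* together, and the 4 cultures without such a sample ran from 0.09 to 0.61. Its level with EtOH was 209 and 326 CPM in AC, 107, 29.8, 120.4 and 126 CPM in PAC, 85.5, 64.1, 163 and 37.2 CPM in BAC, and 57.6, 315, 43.7 and 215 CPM in BPAC. With 4-HT it was 222 and 411 CPM in AC, 171.6, 177, 179 and 192 CPM in PAC, 58.1, 31.8, 48.2 and 31.1 CPM in BAC, and 48.4, 169, 28.9 and 98.9 CPM in BPAC. The donors of BPAC stood apart in both treatments, with all values of donor 2 above those of donor 1. The fitted log2 change was 0.24 (SE 0.78) in AC, 0.91 (SE 0.55) in PAC, -1.05 (SE 0.56) in BAC and -0.87 (SE 0.55) in BPAC. The mean fitted change was 0.57 (SE 0.48) without and -0.96 (SE 0.39) with the allele, a difference of -1.53 (SE 0.62). The share of all genes split between cultures in this way was not counted.

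*Msln* followed *Clu* across the samples (Pearson's r = 0.877 of log2 CPM over 28 samples). With 4-HT it ran from 183 to 406 CPM (median 279, n = 6) without and from 90.9 to 206 CPM (median 108, n = 8) with the allele, groups that overlapped through duplicate 1 of AC (183 CPM) and of BPAC donor 2 (206 CPM). With EtOH it ran from 68.1 to 344 CPM (median 239) and from 100.5 to 331 CPM (median 140.2). Changes within cultures were positive in 5 of 6 without and negative in 7 of 8 with the allele. Of the 6 without it, 2 are the PAC cultures whose 4-HT sample held *Xist* and *Ddx3y* together. The fitted difference between the mean changes was -0.77 (SE 0.41). *Upk1b*, the 1 counted mesothelial marker, ran from 7.84 to 18.2 CPM with and 7.23 to 12.7 CPM without the allele in 4-HT samples, and its part in the result was not tested.

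*Ly6d* and *Ly6e* changed in the same direction with and without the *Braf* allele. *Ly6d*, known from stratified epithelium and lymphoid progenitors, was lower with 4-HT in 5 of 6 cultures without and in 8 of 8 with the allele, with mean log2 changes of -0.96 (SE 0.40) and -0.82 (SE 0.32). It varied widely, from 19.1 to 93.5 CPM with EtOH and from 14.9 to 62.3 CPM with 4-HT. The counted squamous markers *Krt13*, *Krt4* and *Dsg3* (3 of 6) summed to 4.85 to 59.9 CPM with EtOH and 24.6 to 121 CPM with 4-HT, and their part in the result was not tested. *Ly6e*, a broadly expressed and interferon-inducible gene, was higher with 4-HT in 14 of 14 cultures, by 0.07 to 1.41 on the log2 scale. Its mean log2 change was 0.98 (SE 0.23) without and 0.76 (SE 0.19) with the allele, and the differences between these changes, 0.14 (SE 0.50) for *Ly6d* and -0.22 (SE 0.29) for *Ly6e*, were smaller than their SE.

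**Figure D3:**
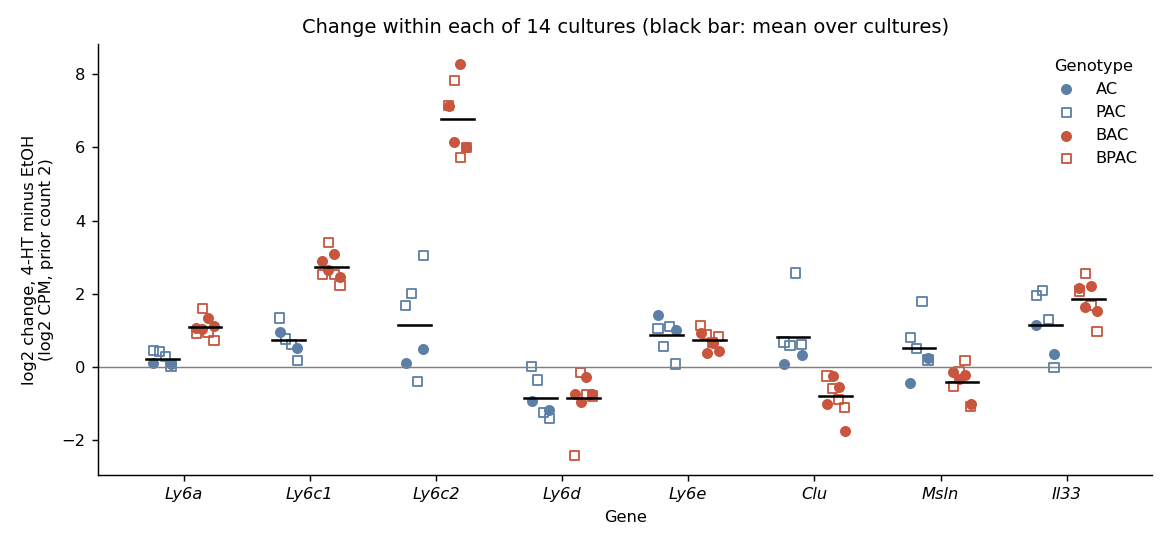
Log2 change from EtOH to 4-HT (y axis, log2 CPM with a prior count of 2) of each gene in each of the 14 cultures, with AC and PAC in blue, BAC and BPAC in red, and a black bar at the mean over the 6 or 8 cultures. *Ly6a* and *Ly6c1* lie higher in all red than in all blue cultures, and *Clu* lies below 0 in the 8 red and above 0 in the 6 blue cultures.

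The count of these genes past the threshold is given with its background. With an adjusted p under 0.01 in edgeR over all genes, 5 of the 8 were higher and 0 lower with 4-HT in organoids with the *Braf* allele (*Ly6a*, *Ly6c1*, *Ly6c2*, *Ly6e* and *Il33*), where 28% of all genes were higher and 30.4% lower. Without the allele 2 were higher (*Ly6c1* and *Ly6e*) and 0 lower, against 14.8% and 15.2%. The change was larger with the allele for 3 (*Ly6a*, *Ly6c1* and *Ly6c2*) and smaller for 0, against 3.05% and 3.55%. The choice of the genes used these changes, so nothing is read from the counts. The log2 difference of *Clu* was -1.45 with the culture as a replicate block, where the count was 4, and the count was 3 with donors summed. The log2 differences in duplicate 2 alone were 0.95 for *Ly6a*, 2.28 for *Ly6c1* and 5.76 for *Ly6c2*, against 0.83, 1.83 and 7.97 in duplicate 1. Without the 2 PAC samples that held *Xist* and *Ddx3y* together, the differences were 0.85 for *Ly6a*, 2.11 for *Ly6c1*, 6.64 for *Ly6c2*, 1.01 for *Il33*, -1.56 for *Clu* and -0.89 for *Msln*. For *Ly6d* the difference was then 0.46 in place of 0.14, and for *Ly6e* it was 0.08 in place of -0.22, so that its sign turned.

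Before recombination, the presence of the *Braf* allele made no difference past the threshold for any of the 8 genes in edgeR, against 0.0296% of all genes. Unadjusted, *Ly6e* and *Ly6a* had p under 0.05, as they did with limma-voom, which also called 0. *Ly6e* was at 105.9 to 211 CPM (median 159.7, n = 8) in EtOH samples with the allele and at 46.1 to 106 CPM (median 89.3, n = 6) in those without, a log2 difference of 0.88 (SE 0.21, adjusted p = 0.0788). Its groups touched, with the lowest sample with the allele, duplicate 2 of BPAC donor 2, just under the highest without. DESeq2 called it (adjusted p = 0.00697), and over 30 alternatives its adjusted p ran from 0.00697 to 0.392. *Ly6a* differed by -0.26 (SE 0.09, adjusted p = 0.166). *Ly6c1* differed by 0.11 (SE 0.18) and *Il33* by -0.13 (SE 0.39).

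The *Trp53* allele, tested in the same fit, gave 0 of 8 genes past the threshold in EtOH (0.0592% of all genes) and 0 of 8 for the 4-HT change (0.0148% of all genes). At an unadjusted p under 0.05 there were 0 in both for edgeR and limma-voom, and for DESeq2 there was 1 in EtOH, *Ly6c2*, and 0 for the change. With donors summed there was 1 in EtOH, *Ly6e*, and 0 for the change. The difference in 4-HT change with minus without the *Trp53* allele was 0.05 (SE 0.13) for *Ly6a*, -0.06 (SE 0.25) for *Ly6c1*, 0.06 (SE 0.53) for *Il33* and 0.42 (SE 0.62) for *Clu*. *Ly6c2* differed by 1.29 (SE 0.95), on counts near 0 in the groups without the *Braf* allele.

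Duplicates 2 and 1 were compared in EtOH samples. None of the 8 passed the threshold in edgeR, limma-voom or DESeq2 for duplicate 2 against duplicate 1, against 9.64% of all genes. *Msln* and *Il33* had an unadjusted p under 0.05 in edgeR and DESeq2, and *Msln* in limma-voom. *Msln* was higher in duplicate 2 by 0.77 on the log2 scale (SE 0.24, adjusted p = 0.0379), and it passed without duplicate 2 of BPAC donor 1 (adjusted p = 0.0038) in a range of 0.0038 to 0.102 over 28 alternatives. *Il33* was higher by 0.98 (SE 0.42, adjusted p = 0.111).

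**Figure D4:**
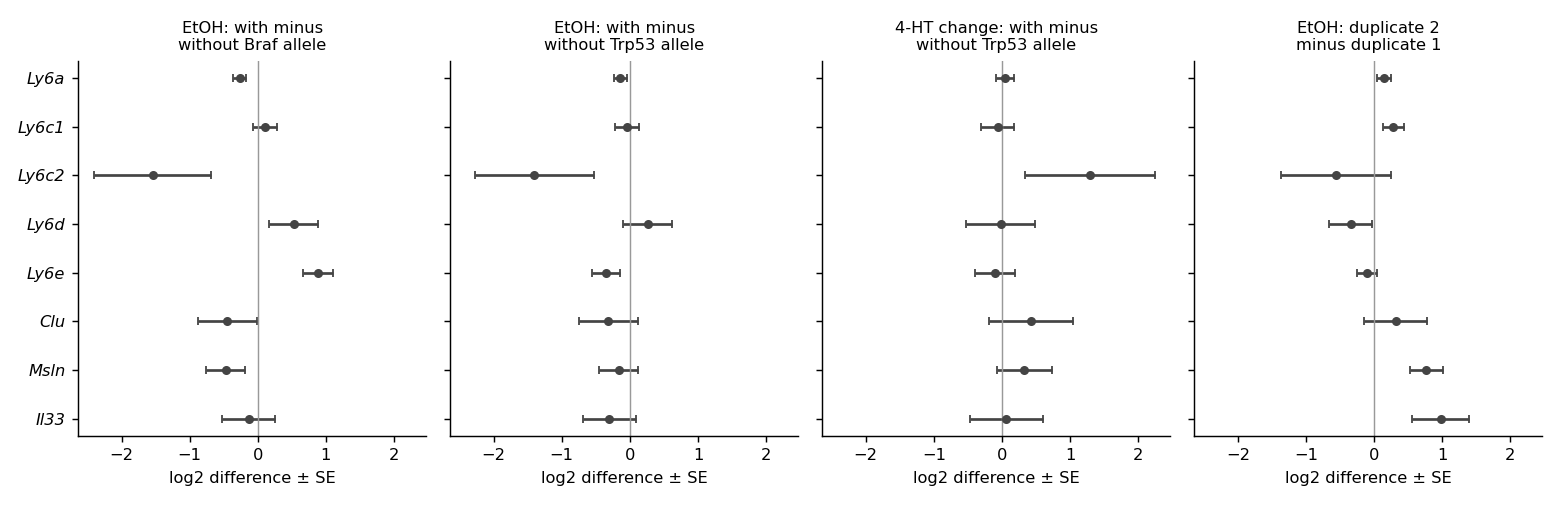
Log2 difference with its SE (x axis) of each gene (y axis) in the 4 tested comparisons, namely the *Braf* allele in EtOH, the *Trp53* allele in EtOH, the *Trp53* allele's effect on the 4-HT change, and duplicate 2 against 1 in EtOH. No gene passed the threshold, and *Ly6e* in the first panel (0.88) and *Msln* in the last (0.77) lie farthest from 0 in units of their SE.

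More of the other genes with a Ly6 or urokinase receptor domain fell than rose with 4-HT. Of 39 listed, 13 were counted. This list and those that follow were chosen with earlier results of these data known. The p values of their genes are not independent of that choice. Without the *Braf* allele 0 rose, 5 fell and 8 did not pass, with a median log2 change of -0.56 against -0.01 for all genes, of which 14.8% rose and 15.2% fell. With it 1 rose, 9 fell and 3 did not pass, with a median of -0.79 against -0.03 for all genes, of which 28% rose and 30.4% fell. With library size alone 6 passed with the allele, 1 of them higher, and 5 passed in duplicate 2 alone or without BPAC donor 1. The effect of the *Braf* allele on the change passed for 2, against 3.05% of all genes higher and 3.55% lower. *Ly6g*, a neighbor of *Ly6c2* known as a neutrophil surface protein, rose in organoids with the allele from 378 ± 67.0 to 1064 ± 220 CPM (SD, n = 8), while without it the mean was 442 ± 94.4 and 424 ± 68.2 CPM (SD, n = 6). Its changes differed by 1.60 (SE 0.21, adjusted p = 3.5e-05), past the threshold in 32 of 32 alternatives. *Lypd8*, which encodes a colonic protein that keeps flagellated bacteria from the epithelium, fell from 6025 ± 476 to 951 ± 364 CPM (SD, n = 8) with and from 6173 ± 621 to 2513 ± 497 CPM (SD, n = 6) without the allele, a difference of -1.28 (SE 0.26, adjusted p = 0.00208), past the threshold in 26 of 32. 

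All 27 other genes listed for the fetal-like and regeneration program were counted, and some rose while others fell. Without the *Braf* allele 4 rose (among them *Tubb6*, *Krt7* and *Hmga2*), 3 fell and 20 did not pass, with a median of 0.12. With it 4 rose (*Tubb6*, *Hmga2*, *Anxa5* and *Krt7*), 8 fell and 15 did not pass, with a median of -0.15, and the all-gene medians are those above. Of all genes, 14.8% rose and 15.2% fell without and 28% rose and 30.4% fell with the allele. The split depended on the scaling, since with library size alone 8 of 10 genes past the threshold were higher without and 10 of 14 with the allele. With the replicate block 6 of 10 and 9 of 18 were higher. *Tubb6*, a beta-tubulin, rose by 1.17 (SE 0.25, adjusted p = 0.000605) without and 1.93 (SE 0.21, adjusted p = 1.08e-08) with it. These genes were named after their values were seen. The effect of the allele passed for 2 genes, both lower with the allele, and the median effect was -0.05 against -0.01, where 3.05% of all genes were higher and 3.55% lower. *Basp1*, a membrane-bound signaling protein, was at 3.12 ± 1.39 and 6.64 ± 2.26 CPM (SD, n = 6) with EtOH and 4-HT without the allele and at 4.17 ± 3.62 and 1.97 ± 1.70 CPM (SD, n = 8) with it, a log2 difference of -2.17 (SE 0.53, adjusted p = 0.00697). *Cxcl16*, a chemokine, differed by -0.65 (SE 0.16, adjusted p = 0.00924). They passed in 13 and 9 of 32 alternatives, and neither without the 2 PAC samples that held *Xist* and *Ddx3y* together.

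Interferon response genes were listed because *Ly6a* and *Ly6e* are known to be interferon-inducible, and most of them fell with 4-HT in organoids with the *Braf* allele. Of 32 listed, 28 were counted. Without the *Braf* allele 2 rose (*Ifitm3* and *Cxcl10*), 7 fell and 19 did not pass, with a median of -0.40, and with library size alone 4 of 8 genes past the threshold were higher. Of all genes, 14.8% rose and 15.2% fell without the allele. With it 2 rose (*Ifitm3* and *Bst2*), 23 fell and 3 did not pass, with a median of -1.07, against 28% and 30.4% of all genes that rose and fell. The effect of the allele passed for 2, both lower, against 3.05% of all genes higher and 3.55% lower. *B2m*, the light chain of MHC class I, fell from 259 ± 41.7 to 89.5 ± 11.5 CPM (SD, n = 8) with and from 263 ± 11.9 to 169 ± 20.6 CPM (SD, n = 6) without the allele, a log2 difference of -0.90 (SE 0.15, adjusted p = 0.000229), past the threshold in 31 of 32 alternatives but not in duplicate 2 alone (adjusted p = 0.0216, the highest in a range from 3.77e-07). *Psmb9*, an immunoproteasome subunit, differed by -1.18 (SE 0.27, adjusted p = 0.00437) and passed in 17 of 32 alternatives. The difference was negative in 27 of the 28 genes, with a median of -0.56 against -0.01 for all genes, and with the replicate block 5 passed. The share of all genes with a negative difference was not counted, so the count of signs is a description. *Ifitm3*, which encodes a membrane protein that restricts viruses, rose by 1.82 (SE 0.29) without and 1.52 (SE 0.23) with the allele, and it was named after its values were seen.

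**Figure D5:**
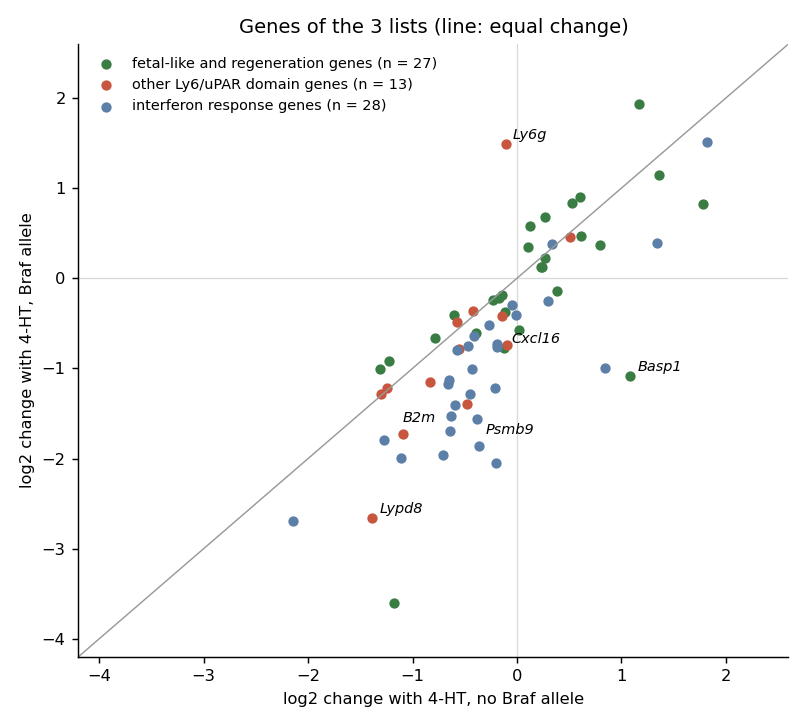
Log2 change with 4-HT without (x axis) and with (y axis) the *Braf* allele for each counted gene of the 3 lists, with the line of equal change and the 6 genes named by rule. *Ly6g* lies above the line, and 27 of the 28 interferon response genes lie below it, a count given as a description.

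The genes whose log2 CPM followed each of the 8 most closely over the 28 samples were ranked by Pearson's r among 12312 genes with a mean of at least 1 CPM. Samples of a culture and of a donor are not independent, and the treatment and the allele move many genes together, so r is a description. *Ly6c1* was followed most closely by *Asns* (r = 0.966), *Polr3g* (0.965) and *Cav2* (0.963), and *Ly6c2* by *Asns* (0.951), *Cav2* (0.944) and *Taf4b* (0.943). For *Ly6a* they were *Eif1a* (0.938), *Eef1e1* (0.937) and *Eif3e* (0.936), and for *Il33* *Slc19a2* (0.918), *Dpy19l1* (0.917) and *Mtap* (0.909). *Clu* went with *Fam20c* (0.942), *Basp1* (0.911) and *Ifnar2* (0.875), and *Msln* with *S100a7a* (0.914), *Fgf15* (0.892) and *Npnt* (0.887). *Ly6d* went with *Sprr1a* (0.885), *Sprr2a3* (0.882) and *Higd1a* (0.881), the first pair encoding cornified envelope proteins, and *Ly6e* with *Hoxa9* (0.907), *Vsig1* (0.891) and *Kank3* (0.878). Among the 8 genes, *Ly6a*, *Ly6c1* and *Ly6c2* correlated with each other at 0.923 to 0.949 and with *Il33* at 0.723 to 0.834, and *Ly6d* with *Ly6e* at -0.02.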

How the data were processed

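RNA-seq of 28 organoid samples was re-analysed. The authors deposited unnormalized read counts for each gene, made after trimming with Trimmomatic 0.39 and alignment to GRCm38 with STAR 2.5.2b (submitters' processing notes). The counting program, annotation and strandedness are not given in the sources used here. Of 13519 Ensembl identifiers, 13479 matched a symbol in GENCODE. The 8 genes and the 3 lists were chosen with earlier results of these data known.

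Counts were scaled by TMM and tested with edgeR 4.0.16 (quasi-likelihood, R 4.3.3) on 8 groups of genotype and treatment with 1 spread, and p values were adjusted by Benjamini-Hochberg over all genes with a threshold of 0.01. TMM factors were 0.885 to 0.970 in EtOH and 1.04 to 1.10 in 4-HT samples. P values measure the spread between cultures, 2 per donor. EtOH and 4-HT samples were matched by culture from the labels (mean r of their deviations 0.416, n = 12), and 1 label without a number was taken as duplicate 1. Named genes were the 8, up to 4 per direction and list with the largest *Braf* effect among those past the threshold, and the 3 most correlated per gene. Limma-voom (3.58.1), DESeq2 (1.42.0), other scalings, filters, prior counts, blocks, single duplicates, thinning and left-out cultures and donors were alternatives. Figures used Python 3.11.15.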

Additional observations from a re-analysis of the deposited data

Results flagged for a closer look

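Among 48 groups of 4 samples (8 genes, 6 groups), 4 had a sample whose gap to its nearest neighbor took more of the range than Dixon's critical value for 4 samples, which chance exceeds in about 1 of 20 groups. These were the lowest *Ly6d* in BAC with 4-HT (15.3 CPM, duplicate 2 of donor 1), the lowest *Ly6e* in BPAC with EtOH (105.9 CPM, duplicate 2 of donor 2) and the highest *Il33* in PAC with EtOH (4.2 CPM) and with 4-HT (4.11 CPM), both from duplicate 2 of donor 2. All 4 came from duplicate 2.

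*Clu* was higher with 4-HT in all 6 cultures without the *Braf* allele and lower in all 8 with it, with mean changes differing by -1.61 on the log2 scale, which is given as a description because the genes were chosen by these changes. Of the 6 cultures, 2 are those whose 4-HT sample held *Xist* and *Ddx3y* together. The share of all genes split between cultures in this way was not counted.

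With the *Braf* allele, the tested log2 difference in 4-HT change was 1.60 for *Ly6g*, -1.28 for *Lypd8*, -2.17 for *Basp1*, -0.65 for *Cxcl16*, -1.18 for *Psmb9* and -0.90 for *B2m*.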

How the results depend on the processing

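Counts of the 8 genes past the threshold stayed at 0 for the *Trp53* allele, on the 4-HT change and in EtOH, under every alternative. For the *Braf* allele in EtOH the count was 0 but 1 with DESeq2 (*Ly6e*), with 0 in each fit that left out a culture or donor. For duplicate 2 against 1 it was 0 but 1 at a threshold of 0.05, and 0 to 1 with a culture or donor left out. The count of 3 for the effect of the *Braf* allele, which only describes genes chosen by this change, was 0 in duplicate 2 alone, 2 to 3 with a culture or donor left out (2 without duplicate 1 of AC) and 4 with the replicate block. Pairing by culture moved 1 of the list counts by over 1.5 times, that of interferon genes, and the donor as a replicate block called 0 of the 8 genes between duplicates.

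Counts of list genes past the threshold moved as follows. In duplicate 2 alone, the fetal-like genes went from 7 to 1 without, from 12 to 5 with the allele and from 2 to 0 for its effect, the Ly6 domain genes from 5 to 1, from 10 to 5 and from 2 to 1, and the interferon genes from 9 to 1, from 25 to 12 and from 2 to 0. With donors summed, fetal-like genes numbered 4 without the allele and 1 for its effect, and interferon genes 1 for the effect. At a threshold of 0.05, fetal-like genes with the allele numbered 20 and interferon genes 8 for the effect, and with the replicate block the latter numbered 5 and with thinned counts 1. For the effect on fetal-like genes limma-voom and DESeq2 size factors gave 1, and duplicate 1 alone and donors summed each gave 1 that was higher and was neither of the 2, and leaving out the PAC 4-HT samples of duplicate 1 gave 0. With library size alone, 6 Ly6 domain genes passed with the allele. With a culture or donor left out, the ranges were 2 to 10, 6 to 14 and 0 to 2 for fetal-like genes, 2 to 5, 5 to 10 and 1 to 2 for Ly6 domain genes, and 6 to 12, 20 to 26 and 1 to 5 for interferon genes, for the change without, with and the effect of the allele. Without 1 of the AC cultures 2 or 4 fetal-like and 3 or 2 Ly6 domain genes passed for the change without the allele, and without BAC donor 2 there were 6 of each with it. The cause of these moves was not tested, beyond the smaller number of samples.

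With library size alone the median of all genes shifted by 0.22 without and 0.19 with the allele (log2) and the share of calls that were higher went from 49.3% to 80.5% and from 47.9% to 64.2%, and by -0.03 for the effect, with 34.6% against 46.2%. Of values past the threshold none changed sign. The difference of *Ly6d* turned negative in duplicate 1 alone (-0.26), without duplicate 2 of BPAC donor 1 and without PAC donor 2. That of *Ly6e* turned positive in duplicate 2 alone (0.01) and without the 2 PAC samples that held *Xist* and *Ddx3y* together (0.08). Of the alternative values of the named genes, 966 stayed on their side of the threshold or within the spread between cultures, 64 no longer passed and 8 moved farther. The sparse counts of *Ly6c2* limit its folds.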

Other observations

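Within the span of the 5 Ly6 genes on chromosome 15, 3 other genes were counted, *Gml*, *Gml2* and *2010109I03Rik*, looked at after the values of the Ly6 genes were seen. All 3 fell with 4-HT past the threshold both without (median log2 change -1.30) and with the *Braf* allele (median -1.28), and the effect of the allele passed for none of them in edgeR (median 0.03). Of all genes, 15.2% fell without and 30.4% with the allele, and the effect passed for 3.05% as higher and 3.55% as lower. The log2 change of *Gml* was -1.30 without and -1.28 with the allele, and that of *Gml2* was -1.24 and -1.21.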
